A study of Homo sapiens with 6 samples.

Results

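Peaks found only in replicate 3 are the places where the third of 3 chromatin immunoprecipitation libraries alone gave a peak of V5-tagged TAF2. The members were chosen by the overlap of the authors' peak lists: a peak of replicate 3 on chromosomes 1 to 22 or X was taken when no peak of replicate 1 or 2 overlapped it by 1 bp or more. Of 1844 such peaks in replicate 3, 682 (37.0%) met this rule, 511 lay in 1 other list and 651 lay in both other lists. The 651 peaks of replicate 3 in both other lists are the comparison group. The 3 lists together held 6043 peaks.

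All libraries came from HepG2-TAF2-V5, a clone of the human liver cancer line HepG2 that carries TAF2 with a V5 tag, a short peptide recognised by an antibody. The labels give 3 libraries of the V5 immunoprecipitation and 3 controls, which are called input in the treatment and IgG in the library name. Control peak lists were not analysed here, and every library, control or V5, is of the tagged clone. The labels do not say whether the 3 V5 libraries stem from separate cultures. The replicate 3 list held 1887 peaks, against 1599 and 2557 in replicates 1 and 2. The lists carry no read totals, so depth is unknown, and an unlisted place is one where no peak was reported, not one without signal. Peaks of 1 list share 1 library, so the tests below describe these lists and not repeated experiments.

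TAF2 belongs to TFIID, a large complex around the TATA-binding protein that helps to assemble the pre-initiation complex of RNA polymerase II at core promoters. TFIID contacts DNA around and downstream of the transcription start, and TAF2 is known for contacts with the initiator element. Promoters of many human housekeeping genes lack a TATA box and lie in CpG islands, stretches rich in G, C and the dinucleotide CG.

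The clearest measured feature of the members was their position at transcription starts. RefSeq promoters (GRCh38.p14, 250 bp before to 50 bp after a start) gave a start for 15812 of 19974 protein-coding genes. Of 659 members on the 22 chromosomes with listed starts, 208 (31.6%, exact binomial 95% interval 28.0 to 35.3%) lay within 1000 bp of such a start. In the comparison group 92 of 623 peaks did (14.8%, 12.1 to 17.8%). The odds ratio was 2.66 (95% interval 2.00 to 3.55, adjusted p = 2.56e-12 by a two-sided Fisher's exact test). Without replicate 2 in the rule, so that only replicate 1 decided what was private, it was 1.75. Intervals cover counting error only.

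The 220 bases upstream of the start are shown for the members of highest fold over a promoter, taken where the listed start is also the annotated end of the gene, because these are the places that only replicate 3 listed. Sequences are from RefSeq, GRCh38.p14, 5′ to 3′ on the strand of the gene, and end at the base before the start. Capitals mark matches on either strand to GGGCGG (the GC box), CCAAT (the site of NF-Y), CCGGAAG (the core bound by ETS factors), CACGTG (an E-box), TGACGTCA (the cyclic AMP response element), TATAAA, AAGATGGC and GCGCATGC, where matches may overlap. They lie at chr5:122845393-122845612 (SNX24, plus strand), chr3:51995896-51996115 (RPL29, minus strand), chr1:181088480-181088699 (IER5, plus strand), chr1:15152346-15152565 (TMEM51, plus strand), chr11:121292551-121292770 (SC5D, plus strand), chr16:29973648-29973867 (TAOK2, plus strand), chr10:117375441-117375660 (PDZD8, minus strand), chr1:162790482-162790701 (HSD17B7, plus strand).
SNX24: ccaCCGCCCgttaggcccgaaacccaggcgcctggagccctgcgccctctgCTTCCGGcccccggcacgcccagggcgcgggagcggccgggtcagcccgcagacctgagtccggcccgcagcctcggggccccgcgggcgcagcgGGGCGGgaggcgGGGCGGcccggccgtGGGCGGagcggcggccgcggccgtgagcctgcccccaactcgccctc
RPL29: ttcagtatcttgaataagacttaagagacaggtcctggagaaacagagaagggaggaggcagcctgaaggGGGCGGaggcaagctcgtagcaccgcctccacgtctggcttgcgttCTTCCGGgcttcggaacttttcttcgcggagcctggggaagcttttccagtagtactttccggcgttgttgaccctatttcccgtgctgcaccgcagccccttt
IER5: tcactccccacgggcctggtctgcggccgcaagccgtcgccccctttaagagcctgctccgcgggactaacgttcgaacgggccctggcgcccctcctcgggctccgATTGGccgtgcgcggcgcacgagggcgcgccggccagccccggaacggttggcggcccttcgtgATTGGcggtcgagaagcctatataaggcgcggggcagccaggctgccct
TMEM51: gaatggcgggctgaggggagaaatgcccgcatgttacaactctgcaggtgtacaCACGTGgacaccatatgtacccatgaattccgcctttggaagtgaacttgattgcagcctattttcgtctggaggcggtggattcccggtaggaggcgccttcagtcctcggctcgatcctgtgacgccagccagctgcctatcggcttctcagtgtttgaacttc
SC5D: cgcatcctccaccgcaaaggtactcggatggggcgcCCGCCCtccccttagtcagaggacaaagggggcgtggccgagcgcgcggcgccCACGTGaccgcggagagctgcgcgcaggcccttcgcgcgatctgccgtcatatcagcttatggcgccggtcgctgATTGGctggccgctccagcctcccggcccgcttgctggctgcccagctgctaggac
TAOK2: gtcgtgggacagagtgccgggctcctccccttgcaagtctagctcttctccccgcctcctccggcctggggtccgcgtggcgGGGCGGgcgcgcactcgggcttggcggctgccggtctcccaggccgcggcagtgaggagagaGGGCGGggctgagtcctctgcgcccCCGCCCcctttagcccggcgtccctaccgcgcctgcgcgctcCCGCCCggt
PDZD8: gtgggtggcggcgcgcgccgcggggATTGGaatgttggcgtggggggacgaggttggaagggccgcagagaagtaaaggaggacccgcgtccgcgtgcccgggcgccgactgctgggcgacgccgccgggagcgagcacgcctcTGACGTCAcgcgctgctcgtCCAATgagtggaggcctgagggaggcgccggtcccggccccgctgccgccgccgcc
HSD17B7: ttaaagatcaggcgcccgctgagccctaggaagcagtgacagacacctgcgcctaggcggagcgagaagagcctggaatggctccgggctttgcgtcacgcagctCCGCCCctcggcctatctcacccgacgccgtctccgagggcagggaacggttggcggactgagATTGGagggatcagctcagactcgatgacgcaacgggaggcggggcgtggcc
GC boxes stood in SNX24 and TAOK2 (4 matches each) and in RPL29, SC5D and HSD17B7 (1 each), and CCAAT in IER5 and PDZD8 (2 each) and in SC5D and HSD17B7 (1 each). SC5D and TMEM51 held CACGTG, SNX24 and RPL29 held CCGGAAG, and PDZD8 held TGACGTCA. None of the 8 windows held TATAAA, and a missing match says only that these letters are not in this window. The sequence of SNX24 was 82.7% G and C with 32 CG dinucleotides, while that of TMEM51 was 55.0% with 12.

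Members near a start had their summits mostly just before it, as did replicate 3 peaks in 1 other list. The median distance of all members to a listed start was 4994 bp. The summits, the highest point of a peak as deposited, lay within 1000 bp of the nearest listed start in 202 of 659 cases, with a median of -58.5 bp (negative meaning upstream) and quartiles of -137.5 and 8.75 bp. The median of summits this near was -70 bp for peaks in 1 other list and -46.5 bp for the comparison group. Upstream were 70.8% of these members, 71.0% of these peaks in 1 other list and 58.3% of the comparison group. Of all 659, 119 (18.1%, exact interval 15.2 to 21.2%) had the summit from 250 bp upstream up to the start, and 34 (5.16%, 3.60 to 7.14%) in the 250 bp from the start on. In the comparison group 24 of 623 (3.85%, 2.48 to 5.68%) and 11 (1.77%, 0.885 to 3.14%) did. Among peaks in 1 other list 60 of 496 (12.1%, 9.36 to 15.3%) and 9 (1.81%, 0.833 to 3.42%) did. Farther out the intervals of the groups overlapped. From 1000 to 2000 bp downstream lay 5.46% of members and 6.58% of the comparison group. Within 250 bp of the start, either side, were 153 of the 202 members near a start (75.7%) and 35 of 72 peaks of the comparison group (48.6%). Of the peaks in 1 other list near a start, 69 of 107 were (64.5%). The odds ratio of the start share changed with the window. It was 4.06 with 250 bp (24.9 against 7.54%, adjusted p = 1.65e-16 by Fisher's exact test) and 2.18 with 2000 bp (38.5 against 22.3%, adjusted p = 6.25e-10).

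**Figure D1:**
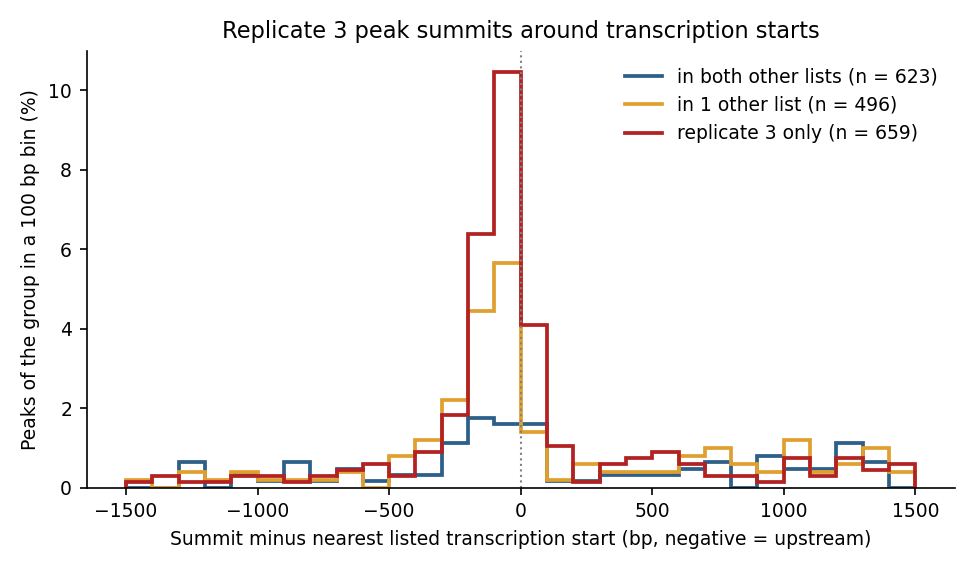
Distance of the summit of replicate 3 peaks from the nearest listed transcription start (x axis, bp, negative upstream) against the percent of the group's peaks in each 100 bp bin (y axis). Members (red) rise above the other groups in the bins just upstream of the start, where 18.1% of members lie within 250 bp against 3.85% of peaks in both other lists (blue), and the lines run together farther out.

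Protein-coding genes were also taken by both ends of their span, which needs no listed start. Of 682 members, 230 (33.7%, exact interval 30.2 to 37.4%) lay within 1000 bp of an end, against 99 of 651 (15.2%, 12.5 to 18.2%; odds ratio 2.84, interval 2.16 to 3.74, adjusted p = 9.31e-15 by Fisher's exact test). This excess was known from earlier results on these lists. For genes longer than 4000 bp with a listed start, starts were set against 3′ ends. All listed starts of a gene counted, also those inside its span, but only a single 3′ end. The start thus had more places to match in both groups. Of 199 members at only 1 of these kinds of place, 190 were at a start (95.5%, 91.6 to 97.9%) and 9 at the 3′ end. In the comparison group 81 of 88 were at the start (92%, 84.3 to 96.7%), and no difference was detected (odds ratio 1.82, interval 0.556 to 5.71, adjusted p = 0.293 by Fisher's exact test). With 250 bp windows the share passed the threshold (97.5 against 88.9%, odds ratio 4.82, adjusted p = 0.0311 in the exact test), and with 2000 bp it did not (92.7 against 92.4%, odds ratio 1.04, adjusted p = 1). Listed starts on both strands, as at divergent promoters, lay by 21 of 208 members at a start (10.1%, 6.36 to 15%) and by 9 of 92 peaks of the comparison group (9.78%, 4.57 to 17.8%), a difference that was not tested.

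The single-library peaks of the other replicates had lower shares. Of the peaks found only in replicate 1, 86 of 454 (18.9%, exact interval 15.4 to 22.9%) lay at a listed start, and of those found only in replicate 2, 180 of 1171 (15.4%, 13.4 to 17.6%). Members exceeded both (odds ratio 1.97, interval 1.47 to 2.66, adjusted p = 3.58e-06, and 2.54, interval 2.01 to 3.21, adjusted p = 5.22e-15, Fisher's exact test). By either gene end the odds ratios were 2.28 (adjusted p = 9.53e-09) and 2.49 (adjusted p = 1.44e-15) in the same exact test. Peaks of replicate 3 in exactly 1 other list lay between, with 115 of 496 at a start (23.2%, 19.5 to 27.2%), and members exceeded these too (odds ratio 1.53, adjusted p = 0.00315 in the exact test). Peaks in all 3 lists had start shares of 15.1, 14.2 and 14.8% as listed in replicates 1, 2 and 3. The members are peaks of 1 library, so what set that library apart and what set the members apart cannot be told apart here.

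**Figure D2:**
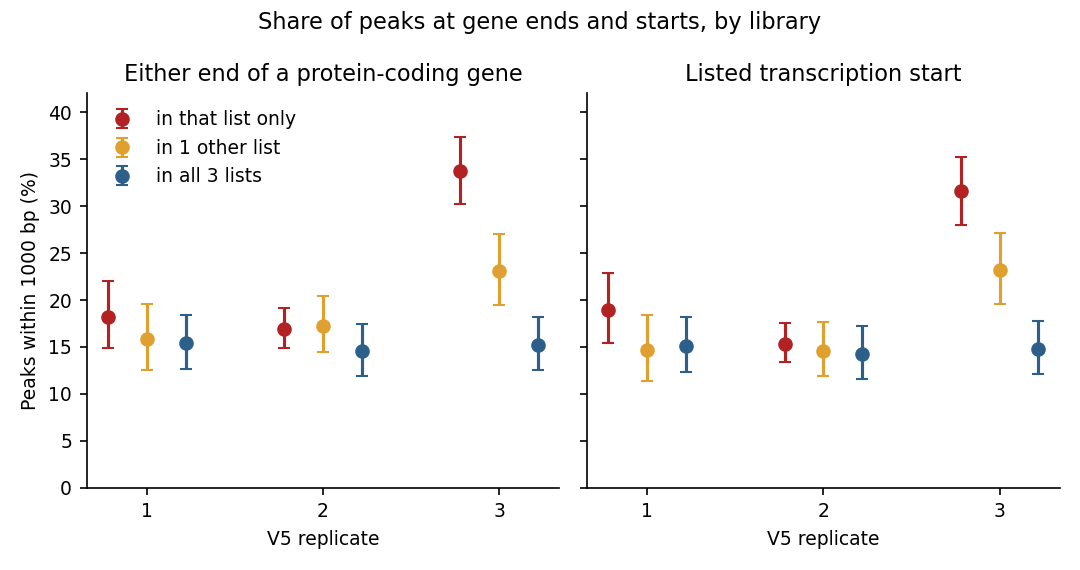
Percent of peaks within 1000 bp of either end of a protein-coding gene (left) or of a listed start (right), by V5 replicate, for peaks in that list only (red), in 1 other list (yellow) and in all 3 lists (blue), with exact binomial 95% intervals. The replicate 3 only peaks stand at 33.7 and 31.6%, above every other group, and the blue points lie between 14.2 and 15.4%.

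Strength was part of what the overlap selects, so it is given as a description with no test. The fold is the authors' enrichment of a peak over the background of their caller, and is used only within a list. Members had a median fold of 4.72 (quartiles 4.17 and 5.43, range 2.39 to 9.51), a median -log10 q of 3.70 and a median width of 191.5 bp. The comparison group had a median fold of 5.70 (range 1.85 to 30.8), a median -log10 q of 7.19 and a median width of 297 bp. In percentiles of the replicate 3 list by fold, the medians were 37.5 and 69.6. Only 7 members exceeded a fold of 8, against 94 peaks of the comparison group, and 3 members were wider than 500 bp, against 127. The peaks found only in replicates 1 and 2 had median percentiles of 38.8 and 38.5 within their own lists.

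The start share was also compared within bins of fold. Between folds of 4 and 5, 93 of 282 members (33.0%, exact interval 27.5 to 38.8%) lay at a listed start, against 21 of 152 in the comparison group (13.8%, 8.76 to 20.3%). Between 5 and 6 the shares were 28.1% (48 of 171) and 10.9% (19 of 174), and up to a fold of 4 they were 38.3% (49 of 128) and 14% (6 of 43). Between 6 and 8 they were 23.9% (17 of 71) and 12.1% (20 of 165), with overlapping intervals. Peaks in 1 other list came close to members up to a fold of 4, with 36.1% (26 of 72, 25.1 to 48.3%). Their share was 23.2% between 4 and 5, 19.6% between 5 and 6 and 20.2% between 6 and 8. Above 8 lay only 7 members, 1 of them at a listed start (14.3%, 0.361 to 57.9%). In the comparison group 26 of 89 were (29.2%, 20.1 to 39.8%), so the intervals overlap and no order is shown. By either gene end the counts above 8 were 3 of 7 members (42.9%) and 30 of 94 peaks of the comparison group (31.9%). Restricted to folds from 4 to 6 the odds ratio was 3.23 (adjusted p = 1.16e-09 by Fisher's exact test), and restricted to widths of 150 to 300 bp it was 4.39 (32.8 against 9.97%, adjusted p = 4.34e-14). These 2 restrictions were chosen after the data were seen.

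**Figure D3:**
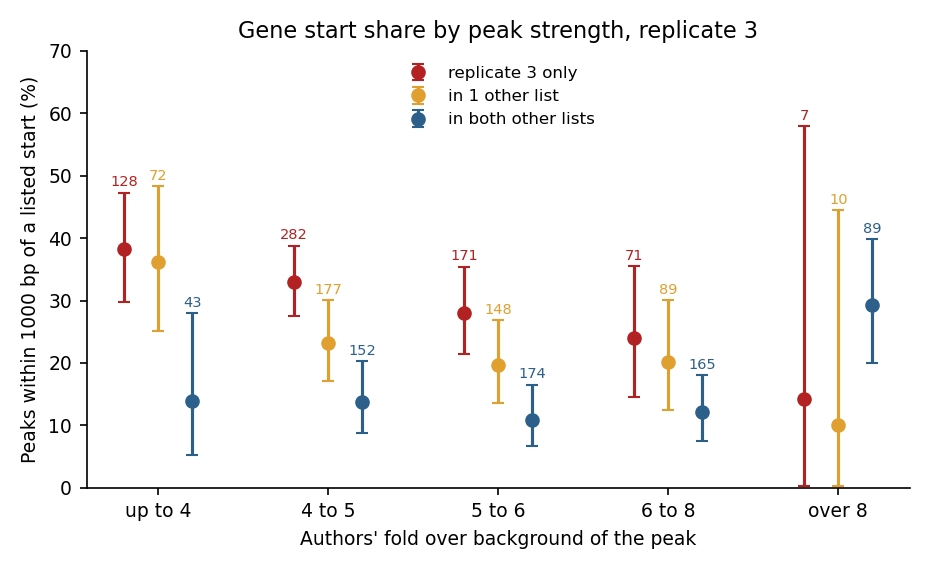
Percent of replicate 3 peaks within 1000 bp of a listed start (y axis) by the authors' fold of the peak (x axis), for members (red), peaks in 1 other list (yellow) and peaks in both (blue), with exact 95% intervals and the number of peaks above each. Members lie above the blue points in the 4 bins up to a fold of 8 and below in the last, which holds 7 members. Above a fold of 6 the intervals of members and blue points overlap.

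Placed by the summit in 1 of 5 classes, 225 members (33.0%) fell at a protein-coding gene end, 282 (41.3%) inside a protein-coding gene away from its ends, 48 (7.04%) at an end of another gene, 42 (6.16%) inside another gene and 85 (12.5%) between genes. The annotation used gives gene spans without exons or introns. Intergenic summits were fewer than in the comparison group (12.5%, exact interval 10.1 to 15.2%, against 22.6%, 19.5 to 26.0%; odds ratio 0.488, adjusted p = 1.99e-06 by Fisher's exact test). The share inside protein-coding genes (41.3 against 46.7%, odds ratio 0.805, adjusted p = 0.0641 in the exact test) and at ends of other genes (7.04 against 8.45%, 0.821, adjusted p = 0.357) did not differ detectably. The share inside other genes was lower (6.16 against 9.68%, 0.613, adjusted p = 0.0256 in the exact test), a call lost without replicate 2 in the rule (0.736, adjusted p = 0.109). Ends of noncoding genes under member summits included 33 long noncoding RNA genes and 4 small nucleolar RNA genes, SNORA64, SNORA73B, SNORD32A and SNORD33. In the comparison group they included 40 long noncoding RNA genes and 14 small nucleolar RNA genes. Transcribed pseudogenes went the other way, with 9 under members and 1 in the comparison group. None of these differences was tested. These are counts of genes and not of peaks, and neighbouring genes can share 1 peak. The share over all annotated genes of each type was not taken. Small nucleolar RNAs guide the chemical modification of ribosomal and other RNA, and these 4 names were chosen after their values were seen.

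Members were mostly isolated. In 408 cases (59.8%, exact interval 56.0 to 63.5%) a member was the only replicate 3 peak in its 100 kb window, against 226 of the comparison group (34.7%, 31.1 to 38.5%). In windows with 5 or more peaks lay 63 members (9.24%) and 164 peaks of the comparison group (25.2%). The share of a chromosome's replicate 3 peaks that were members ran from 3 of 28 on chromosome 18 (10.7%, 2.27 to 28.2%) to 8 of 14 on chromosome 13 (57.1%, 28.9 to 82.3%). On chromosome 9 it was 30 of 55 (54.5%, 40.6 to 68.0%). The gene-end share was higher in members than in the comparison group on 19 of 23 chromosomes, among which chromosome 17 had the widest difference, with 25 of 59 members and 3 of 53 peaks of the comparison group. It was lower on chromosomes 5, 13 and 22, and on chromosome 18 neither group had a peak at an end.

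The gap to the nearest peak of replicate 1 or 2 ran from 5 to 10150400 bp, with a median of 50194.5 bp. The nearest 87 members (12.8%) lay within 500 bp of such a peak and 131 (19.2%) within 1000 bp, while 277 (40.6%) had none within 100 kb. Of the 131 within 1000 bp, 24 (18.3%) lay at a protein-coding gene end, and of the 551 farther away, 206 (37.4%). The rule turns on single bases at its edge. Just inside it, a member inside the noncoding gene LOC105370777 (fold 6.29) lay 5 bp from a peak of another list, a member in MATR3 (5.45) lay 10 bp away, one at NDUFC2 (3.82) 16 bp and one in the noncoding gene DLEU2 (5.43) 21 bp. Just outside it, peaks in CBX3, BPIFB2, LGSN, HNRNPH1 and BRD2 (folds 4.91, 6.15, 3.47, 4.39 and 4.70) overlapped another list by 3, 5, 6, 8 and 8 bp.

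**Figure D4:**
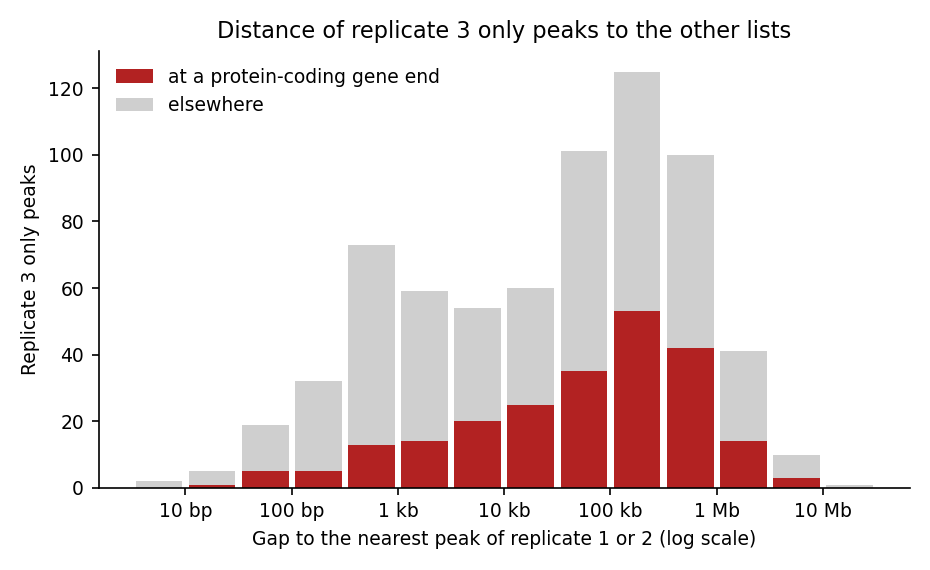
Number of members (y axis) by the gap to the nearest peak of replicate 1 or 2 (x axis, log scale), with those at a protein-coding gene end in red and the others in grey, stacked. Of the members within 1000 bp of another list's peak 18.3% are red, and of those farther away 37.4%.

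Among genes with a member at an end, the strongest was EPB41L4B, which encodes a protein of the band 4.1 family (chromosome 9, 109321047 to 109321282, fold 9.51, percentile 97.4). Its summit lay 92 bp from the annotated end, and the nearest peak of another list was 426 kb away, in replicate 2. KLF3, a transcriptional repressor of the Krüppel-like family, followed (chromosome 4, 38663941 to 38664169, fold 8.50), with a replicate 2 peak 8.25 kb away. SNX24, a sorting nexin gene, had a fold of 8.18 with the summit 99 bp before its start (chromosome 5, 122845364 to 122845634), and no peak of another list within 668 kb. RPL29, a protein of the large ribosomal subunit, had a fold of 7.62 with the summit also 99 bp before the start (chromosome 3, 51995883 to 51996066). The summit at IER5, an immediate early response gene, lay 46 bp before the start (fold 7.36), and the nearest peak of another list was 2904 kb away. None of these 5 places had a peak of another list within 8 kb.

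Further along the 20 strongest were NT5DC2 (fold 7.30, with the summit 1043 bp inside the gene), TMEM51 (6.90), PIM1 (6.64), TAOK2 with its neighbour TMEM219 (6.41), YEATS4 (6.39), PDZD8, YPEL1 and CSRNP1 (6.36 each). PIM1 encodes a cytokine-induced kinase, TAOK2 a kinase of stress signalling, and YEATS4 a reader of acetylated histones. At PIM1 peaks of replicates 1 and 2 lay 165 and 172 bp from the member, and at TMEM51 a replicate 2 peak lay 599 bp away, so these 2 genes also had peaks of other lists close by. TXN, which encodes thioredoxin (fold 6.12, summit 96 bp before the start), and KEAP1, the adaptor that targets the antioxidant factor NRF2 for degradation (6.04, 134 bp before a start), also ranked there. IGF2BP2, an RNA-binding protein gene, had a summit 27 bp after its start (fold 6.0), with a replicate 1 peak 2.37 kb away. PRRC2A (5.95) had its summit 25 bp after the start. DYNLL2, a dynein light chain gene (5.91), had its summit 76 bp from an annotated end.

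Of 19974 protein-coding genes 272 (1.36%) had a member within 1000 bp of an end, and of 15812 genes with a listed start 224 (1.42%) had a member there. Among the 272, 243 (89.3%) had no peak of replicate 1 or 2 at either end, 20 had one in replicate 1 and 23 in replicate 2. Members were chosen for having no overlapping peak in replicates 1 and 2, so the 89.3% is in part set by the rule. The same share was not taken for other genes. The gene lists below are described by counts beside the shares of 1.36 and 1.42%, with no test. An end in these counts is either end of a gene. The member was not within 1000 bp of a listed start of the gene at GAPDH, FASN, DDX5, AGT, APOC3, IER2, ATP5F1D or NDUFC2.

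Abundant housekeeping genes had a member at an end in 8 of 40 cases (20%), next to 6 with a replicate 3 peak in both other lists and 9 with one in exactly 1. The strongest were PKM, pyruvate kinase (fold 5.89, summit 111 bp before the start), OAZ1, ornithine decarboxylase antizyme (5.79, 44 bp before), GAPDH, a glycolytic enzyme (4.82), and TPT1 (4.81, 173 bp before). At PKM the nearest peak of another list was 2090 kb away. Sterol synthesis genes with a member at an end included 2 whose products act late in the pathway. SC5D, the sterol C5 desaturase (fold 6.56, 101 bp before the start), and HSD17B7, a ketosteroid reductase of the same pathway (6.25, 135 bp before), had no end peak in the other lists. FASN, fatty acid synthase, was the only one of 12 fatty acid synthesis genes with a member at an end (3.73), and ACLY of the same list had one at a start inside its span.

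Splicing factor genes had a member at an end in 5 of 50 cases, LUC7L3 (fold 5.85), HNRNPA3 (4.78), HNRNPC (4.55), HNRNPA2B1 (4.19) and DDX5 (4.10). Each of these 5 also had an end peak in replicate 1 or 2, and at HNRNPA3 and HNRNPC it lay 80 and 87 bp from the member. Translation factors and tRNA synthetases had 3 of 58, EIF5B (5.79), EIF4A2 (4.42) and EIF6 (3.09), and cytosolic ribosomal proteins 1 of 77, RPL29. EIF4A2 also had end peaks in replicates 1 and 2, with a peak of another list 212 bp from the member. Plasma protein genes had 3 of 46, the fibrinogen chain gene FGG (4.47), the complement gene CFB (4.14) and the angiotensinogen gene AGT (3.47). At AGT the summit lay 11006 bp after a listed start. FGG also had an end peak in replicate 1, and a peak of another list lay 62 bp from its member. Apolipoprotein and lipid transport genes had 1 of 23, APOC3 (2.95). Hepatocyte transcription factors had 2 of 25, CEBPB (4.55, 109 bp before the start) and FOXA1 (4.25), the latter also with an end peak in replicate 2. None of 10 hepatocyte marker genes, ALB and HNF4A among them, had a member at an end. A member lay inside HNF4A, away from its ends (5.60, summit 3453 bp after a listed start).

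Immediate early genes had 2 of 32, IER5 and IER2, the latter at 4.89 with the summit 4646 bp after a listed start. The unfolded protein response had 2 of 27, DDIT4 (4.86) and the chaperone gene HYOU1 (3.86). Cell cycle genes had 2 of 42, CDK4, the cyclin D-dependent kinase (5.19, 82 bp before the start), and CDKN1B, an inhibitor of cyclin-dependent kinases (4.82). CDKN1B also had end peaks in replicates 1 and 2. Oxidative phosphorylation genes had 2 of 63, ATP5F1D (3.93) and NDUFC2, chaperones 1 of 26, HSPA8 (4.50), and proteasome subunits 1 of 34, PSMD12 (3.58). NDUFC2 also had end peaks in replicates 1 and 2. HSPA8 also had one in replicate 2, with a peak of another list 58 bp from the member. No member lay at an end of 29 genes for TFIID subunits and other general factors of RNA polymerase II, of 48 mitochondrial ribosomal proteins, of 58 replication-dependent histones, of 43 genes of neurons, muscle and blood or of 392 olfactory receptors. At the background share of 1.36%, lists of 29 to 58 genes correspond to fewer than 1 such gene each. That does not hold for the larger list of 392 olfactory receptors, whose absence was not tested.

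Away from protein-coding gene ends the strongest members lay in noncoding or intergenic DNA and in gene bodies. The first, with a fold of 9.38, lay on chromosome 12 (115452037 to 115452280) inside the noncoding gene LOC105370003, 506 kb from the end of MED13L. The next (9.09) lay on chromosome 10 (11699623 to 11699854), 42.7 kb from ECHDC3. The nearest peaks of other lists lay 18.4 and 16.1 kb away. Members inside genes lay in SULT2B1, a sulfotransferase gene (8.54), VAV2, an exchange factor gene (7.72), PTMA, the prothymosin gene (7.50), LIN54 (7.36) and AMDHD1 (7.32). The one in LIN54, a subunit of the DREAM cell cycle complex, was 184 bp before a listed start inside the gene span. Others were 21.3 kb from SULT1B1 (8.39), 17.3 kb from AGFG1 (7.57) and on chromosome 5 at 71290070 to 71290261 (7.73).

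Promoter windows of 300 bp under members were rich in G and C. Members overlapped 195 listed promoter windows of 170 genes, and 158 of 659 members (24.0%, exact interval 20.8 to 27.4%) overlapped one, against 45 of 623 peaks of the comparison group (7.22%, 5.32 to 9.55%). Windows under members had a median G and C content of 69.0% (quartiles 64.5 and 74.0%) and a median of 30 CG dinucleotides. The 51 windows under the comparison group had 66.0% (60 and 69.8%) and 30, and all 22132 listed promoters had 62.3% (53 and 70%) and 21. Median G and C content was 67.7% under replicate 3 peaks in 1 other list. Under peaks found only in replicates 1 and 2 it was 67.0 and 63.7%. Over 60% G and C were 173 of the 195 (88.7%), 38 of the 51 (74.5%) and 57.1% of all. Windows of 1 gene can overlap, so these values are descriptions with no test.

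GGGCGG was found on either strand in 166 of the 195 windows under members (85.1%, exact interval 79.3 to 89.8%), 36 of the 51 (70.6%, 56.2 to 82.5%) and 56.3% of all promoters. It was also frequent under replicate 3 peaks in 1 other list (79.1%) and under peaks found only in replicate 1 (77.8%) or replicate 2 (77.8%). CCGGAAG was found in 42 (21.5%, 16 to 28%), in 4 (7.84%, 2.18 to 18.9%) and in 12.8% of all. In windows under peaks found only in replicates 1 and 2 it stood at 23.8 and 18.5%. CCAAT was found in 44.1, 51.0 and 34.6% of the windows of members, comparison group and all promoters, CACGTG in 10.8, 13.7 and 8.34%, and TATAAA in 6.15, 11.8 and 9.46%. The intervals of members and comparison group overlap for every one of these motifs. TGACGTCA (3.08, 3.92 and 2.26%), AAGATGGC (2.56, 3.92 and 3.54%) and GCGCATGC (3.08% of members' windows, 0 of 51 with an exact upper limit of 6.98%, and 3.74% of all) were rare in all 3.

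**Figure D5:**
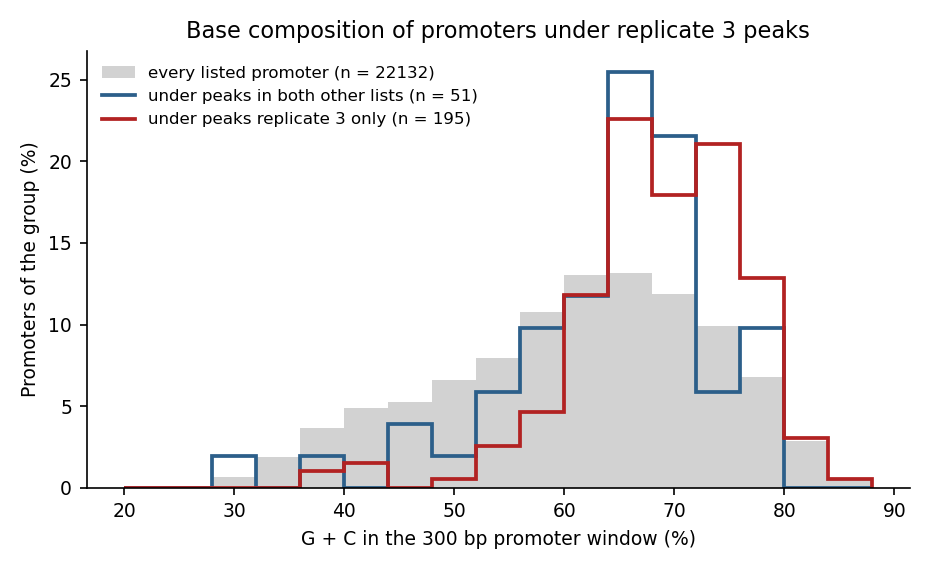
G and C content of 300 bp promoter windows (x axis, percent) against the percent of windows (y axis), for windows under members (red, n = 195), under replicate 3 peaks in both other lists (blue, n = 51) and for all listed promoters (grey). The red line is shifted to the right of the grey area, with medians of 69.0 and 62.3%.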

How the data were processed

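The authors deposited a peak list in the narrowPeak layout for each of the 3 V5 libraries, on GRCh38 per the submitters' processing notes. The aligner, caller, threshold and control were not given in the sources used here. The deposited fold is a ratio of signal to the caller's background. The deposited -log10 p and -log10 q are per peak, and of these only q was used. The deposited score, which is the integer part of 10 times -log10 q, entered no result. The summit offset is as deposited. Values were used only within a list.

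Peaks of replicate 3 on chromosomes 1 to 22 and X were grouped by overlap of 1 bp with the other lists, and 43 on other sequences were left out. Positions were compared with RefSeq gene spans and promoters of GRCh38.p14. A listed start was given for 79.2% of protein-coding genes and for none on chromosome 8, whose 23 members were left out of start tests, so start shares are lower bounds. Shares were compared with two-sided Fisher's exact tests, adjusted over 12 tests by Benjamini-Hochberg with a threshold of 0.05, and carry exact (Clopper-Pearson) 95% intervals. The code was tested on simulated data. Named were the 20 strongest members at protein-coding gene ends, the 10 strongest away from them, up to 4 per list and 5 on each side of the overlap rule. Some items that the rule names are left out of the text. Genes named beyond this rule were chosen after their values were seen. The members and lists were chosen with earlier results of these data known. Alternatives changed windows, peak thresholds, overlap rules, clustering and libraries. Calculations used Python 3.11.15, numpy 2.4.6, pandas 2.3.3, scipy 1.17.1 and matplotlib 3.10.9.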

Additional observations from a re-analysis of the deposited data

How the results depend on the processing

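The higher gene-end and gene-start shares of members kept their direction and passed the threshold under each of 15 alternatives. Odds ratios ran from 2.04 to 3.91 for ends and from 1.75 to 4.39 for starts (Fisher's exact test, adjusted p up to 0.000636 and 0.00183). The comparison was with peaks in both other lists, or in the 1 remaining list where a replicate was left out of the rule. These 15 include the fold and width restrictions chosen after the data were seen. Set against peaks in 1 other list the odds ratios were 1.69 and 1.53, and against all other replicate 3 peaks 2.21 and 2.03, and these passed too. Leaving out a replicate from the rule gave odds ratios of 2.04 to 2.22 for ends and 1.75 to 2.30 for starts, the lower ones without replicate 2. The excess over peaks of replicate 1 only and replicate 2 only also passed in all 10 alternatives run. Summits inside other genes lost the call with -log10 q of at least 3 (0.672), a fold of at least 5 (0.615) and other lists widened by 500 bp (0.654), and ranged from 0.644 to 0.736 without a replicate. With the lists widened, summits inside protein-coding genes passed the threshold (0.643), and with a 250 bp window so did the start share against the 3′ end (4.82). The cause was not tested. The number of genes with a member at an end was 184 with a 250 bp window, 263 by summit and 347 with 2000 bp. No paired analysis was possible because peak lists were used for 1 group only, the V5 libraries. Depth is unknown, so it cannot be said which unlisted places carried signal below the caller's threshold.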

Other observations

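Members at listed starts of further genes are given here singly. They were named after their values were seen, so they describe no group. VDAC1, the main channel of the outer mitochondrial membrane (fold 6.56, 26 bp before a listed start), lay 644 kb from the nearest peak of another list. The summit at KDM1A, a histone demethylase gene (5.78), lay 120 bp before the start. TXNRD1, the reductase of thioredoxin, had a member 60 bp before a listed start (5.68), and there a peak of another list lay only 343 bp away. TGFB1, a growth factor gene (5.65), had its summit 89 bp before the start, CCNT2, a cyclin gene of transcription elongation (5.11), 43 bp before, and TFRC, the transferrin receptor gene (4.81), 62 bp before. At SLC16A3, a lactate transporter gene, it was 200 bp before a listed start (4.55), at HK2, a hexokinase gene, 83 bp (4.23), at SLC2A1, a glucose transporter gene, 65 bp (4.21), at SUZ12, a Polycomb subunit gene, 146 bp (4.17), and at SMAD3, a signal transducer gene, 100 bp (4.13). Peaks of another list lay 14039, 6338 and 4664 bp from the members at SLC16A3, HK2 and SLC2A1.

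In 5 genes of the lists a member lay at a listed start inside the gene span and not at an annotated end, so the counts by end leave them out. CDKN1A, an inhibitor of cyclin-dependent kinases on the cell cycle list, had one 133 bp before a listed start (5.28), 4996 bp from another list's peak. ACLY, which makes cytosolic acetyl-CoA and is on the fatty acid synthesis list, had one 238 bp before (5.18). HSP90AA1, on the chaperone list, had one 69 bp before (4.83). ZFP36L1, a gene of mRNA decay on the immediate early list, had one 399 bp after a listed start (5.95). HNRNPF, on the splicing factor list, had a pair, 972 bp after and 523 bp before listed starts (5.22 and 5.0), with peaks of another list 454 and 180 bp away.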
